A study of Mus musculus with 16 samples.

Results

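Gene expression was compared between 5 libraries of LSK cells carrying human DNMT3A R882H and 3 libraries of WT LSK cells, all from mice treated with azacitidine. LSK cells are the lineage-negative, Sca1-positive, Kit-positive fraction of mouse bone marrow, which holds haematopoietic stem cells and multipotent progenitors. These are 8 of the 16 libraries of the study, and all 30141 mouse gene rows were taken. The other 8 libraries, 4 of each genotype, came from mice given 0.9% NaCl.

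In the R882H group the cells express mouse Dnmt3a together with a human DNMT3A cDNA with the R882H change, knocked in behind a stop cassette in C57BL/6N-derived embryonic stem cells and released by Mx1-Cre. Donors of both genotypes received poly(I:C), an interferon inducer that switches on Mx1-Cre. The labels give 2 schedules of it, 15 µg per g or 400 µg, and do not say which animals had which. After 4 weeks donor marrow was mixed 1:1 with CD45.1 competitor marrow and transplanted into CD45.1 recipients. From week 2 after transplantation, recipients received 2.5 mg per kg azacitidine over 2 weeks, 5 days on, 2 days off and 5 days on. The labels give no age beyond age-matched donors, describe controls without Cre in the protocol but only as WT in the sample fields, and do not say whether donor cells were separated from competitor cells before the RNA was taken. They also do not say that libraries came from separate animals, so the p-values measure the spread between these libraries.

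DNMT3A places new methyl groups on cytosines in DNA, and the R882H change, found in acute myeloid leukaemia and clonal haematopoiesis, lowers that activity. Azacitidine is a cytidine analogue that is built into RNA and DNA, where it traps DNA methyltransferases. It is used to treat myeloid malignancies, and loss of methylation under it can be followed by transcription of normally silent genes and by an interferon response.

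Levels are CPM, the counts of a gene scaled to the total of its library, on library sizes normalised by the TMM method of edgeR, and differences are log2 values of R882H minus WT with their standard errors (SE). A gene was called at a Benjamini-Hochberg adjusted p under 0.05 in edgeR's quasi-likelihood test over all 18341 genes that passed the filter on low counts. The 8 libraries held 39862439 to 56012766 counts each. WT replicates 1 and 2 stood apart: on the first principal component of the 8 libraries, with 31.4% of the variance, they scored 90.45 and 65.6, WT replicate 3 scored -14.03 and the R882H libraries scored -48.71 to -4.54. WT replicate 1 also had 10.09% of its counts on repeat families, against 3.46 to 5.35% in the other 7 libraries. On the first component of all 16 libraries (26.4% of the variance), the NaCl libraries numbered 1 and 2 scored 28.1 to 78.57 and those numbered 3 and 4 scored -63.65 to -37.97, while R882H azacitidine replicates 1 and 2 scored -44.16 and 0.76. The labels name no batch, and whether the numbers mark one was not tested. Values are therefore also given within the azacitidine libraries numbered 1 and 2, 2 against 2, and within those numbered 3 and up, 3 R882H libraries against WT replicate 3 alone. The latter describe that 1 WT library and cannot show where a difference lies. WT replicate 3 lay among the R882H libraries on the first axis. For that reason the WT libraries are given singly for many genes below, in the order of their numbers. Other values are given as ranges.

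**Figure D1:**
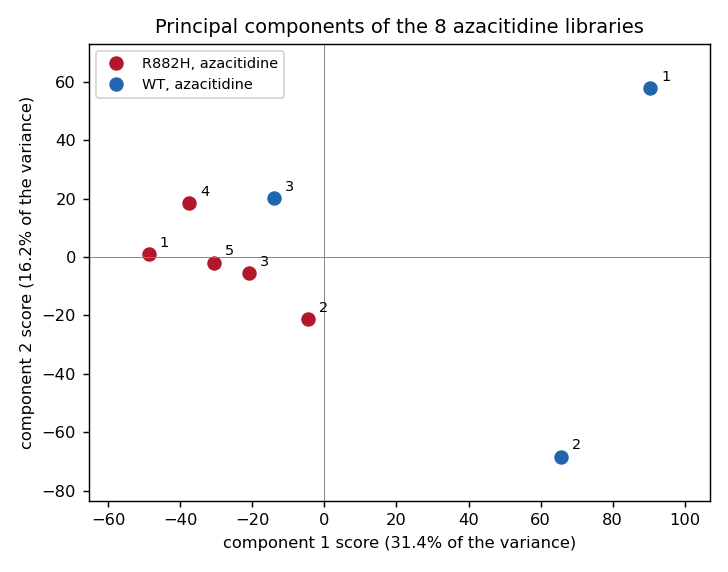
Scores of the 8 azacitidine libraries on the first and second principal components of log2 CPM; each point is a library, coloured by genotype and marked with its replicate number. WT replicates 1 and 2 lie at 90.45 and 65.6 on the first component, far from WT replicate 3 at -14.03 and from all 5 R882H libraries.

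The sort was checked against defining markers. Kit, the stem cell factor receptor, stood at 431 to 1037 CPM in R882H and at 446 to 636 in WT. Ly6a, which encodes Sca1, stood at 81.0 to 158 CPM in R882H and at 31.7, 30.6 and 152 in WT replicates 1, 2 and 3. Markers of mature cells ranged from 0 to high levels. Cd3e of T cells stood at 0.449 to 0.696 CPM in R882H and at 0, 0.027 and 0.693 in WT. Pax5 of B cells was at 0 in 4 of the 5 R882H libraries and 1 of the 3 WT libraries, and Cd8a of T cells in 5 of 5 and 2 of 3. Other genes of these lists were plainly expressed, such as Nkg7 of cytotoxic lymphocytes at 339.8 to 525.9 CPM in R882H and 381 to 841 in WT, and Cd72 of B cells at 106 to 147 and 64.2 to 130. Jchain, the joining chain of secreted antibodies, stood at 796 to 1934 CPM in R882H and at 121, 416 and 1523 in the WT libraries. In bulk RNA, fewer cells of a type and less RNA per cell cannot be told apart.

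In edgeR's quasi-likelihood test 1 gene was called under azacitidine, 0.00545% of the genes tested, with 0 higher and 1 lower. Under NaCl 1 gene was called too, 0.00545%, and there 667 genes (3.64%) were higher and 359 (1.96%) lower at an unadjusted p under 0.05. DESeq2 called 21 genes under azacitidine (0.114%), 14 higher and 7 lower, and limma-voom called 0, with 1597 genes at an unadjusted p under 0.05.

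R882H lay above WT in 486 genes (2.65%) and below it in 1227 (6.69%) with an unadjusted p under 0.05. In 926 genes (5.05%) all 5 R882H libraries lay above all 3 WT libraries, and in 1039 (5.66%) all lay below. WT replicate 1 was most often at the top on the lower side. It was the highest of the 8 libraries in 806 of the 1227 genes (65.7%). WT replicate 2 was so in 390 and WT replicate 3 in 31. Over all genes tested, the shares of these WT libraries were 23.2%, 23.6% and 7.09%. A WT library was the highest in every one of the 1227 genes, which the choice of that side makes likely. Without WT replicate 1, the number of genes with p under 0.05 in either direction was 590 in place of 1713 (9.34%). The genes described here did not pass the test, and with edgeR's adjusted p at 0.533 or above their values are given as a description.

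Among the 12 genes with the lowest p on the higher side, 11 had every R882H library above every WT library, beside 5.05% of all genes. The choice by low p in these same libraries makes that likely. Taf9b, a subunit of the general transcription machinery, stood at 24.1, 21.2, 21.7, 17.8 and 19.1 CPM in R882H and at 12.6, 13.2 and 13.9 in WT (log2 0.65, SE 0.16). The WT libraries lay close together here, and the groups did not overlap. DESeq2 called Taf9b (adjusted p = 0.0117), and under NaCl its log2 difference was 0.40 (unadjusted p = 0.018). St7, a transmembrane protein first described as a tumour suppressor candidate, stood at 57.3, 48.2, 54.8, 50.3 and 52.99 CPM in R882H and at 30.9, 37.0 and 40.4 in WT (log2 0.55, SE 0.14). It too was called by DESeq2 (adjusted p = 0.0487), while under NaCl its log2 difference was 0.05 (unadjusted p = 0.73).

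Lysosomal and secretory genes were among the rest of these 12. Hgsnat and Smpd1 encode lysosomal enzymes that act on heparan sulfate and sphingomyelin. Hgsnat stood at 46.0 to 52.0 CPM in R882H and at 27.7, 35.9 and 39.6 in WT (log2 0.51, SE 0.16), and Smpd1 at 56.8 to 76.5 and at 49.99, 47.3 and 53.1 (log2 0.41, SE 0.13). Lgals3bp, a secreted glycoprotein induced by interferon, stood at 297 to 377 CPM in R882H and at 188, 225 and 260 in WT (log2 0.58, SE 0.17), and Gsn, which severs actin filaments, at 55.6 to 94.6 and at 36.5, 52.3 and 42.3 (log2 0.86, SE 0.26). None of these 4 genes had an overlapping library. Under NaCl their log2 differences were 0.24, 0.06, -0.0028 and -0.11, and the difference between treatments was not called for any of them (edgeR adjusted p of 0.763 or above), with unadjusted p of 0.245, 0.0701, 0.0251 and 0.0151. Plod1 of collagen hydroxylation, Wsb2 of protein ubiquitination, Cdk5rap1 of tRNA modification and the histone gene Hist1h2ac had log2 differences of 0.78, 0.52, 1.498 and 2.01. The last 2 of the 12, Dnajc27 and the antibody segment Igkv5-48, are described further on.

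On the lower side, WT replicate 1 was the highest of the 8 libraries in 10 of the 12 genes with the lowest p. It was the highest in 65.7% of the 1227 genes with an unadjusted p under 0.05 on that side, and in 23.2% of all genes tested. The choice of the lower side makes a WT library likely to be the highest. Of the 12 genes, 8 were free of overlap, beside 5.66% of all genes with every R882H library below every WT library. Their choice by low p makes this likely too. Setd1b, which methylates histone H3 at promoters, stood at 8.46 to 13.6 CPM in R882H and at 47.6, 20.9 and 16.8 in WT (log2 -1.34, SE 0.35). Kmt2d, which does so at enhancers, stood at 49.8 to 62.7 CPM against 269, 56.5 and 86.8 (log2 -1.28, SE 0.35), so that WT replicate 2 lay within the R882H range. Outside these 12, Cdk6, the G1 kinase that drives stem cell exit from quiescence, stood at 160, 248, 215, 238 and 233 CPM in R882H and at 1016, 477 and 280 in WT (log2 -1.43, SE 0.40). Pim1, a survival kinase induced by cytokines, stood at 24.5 to 32.3 CPM in R882H and at 140, 46.1 and 34.2 in WT (log2 -1.44, SE 0.40). For both kinases the groups did not overlap, but the WT libraries were spread widely. Cotl1, which binds F-actin, and Ffar2, a receptor for short-chain fatty acids, differed under NaCl as well, with log2 differences of -0.73 and -0.84 (unadjusted p = 0.018 and 0.012) beside -1.11 and -1.12 under azacitidine.

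**Figure D2:**
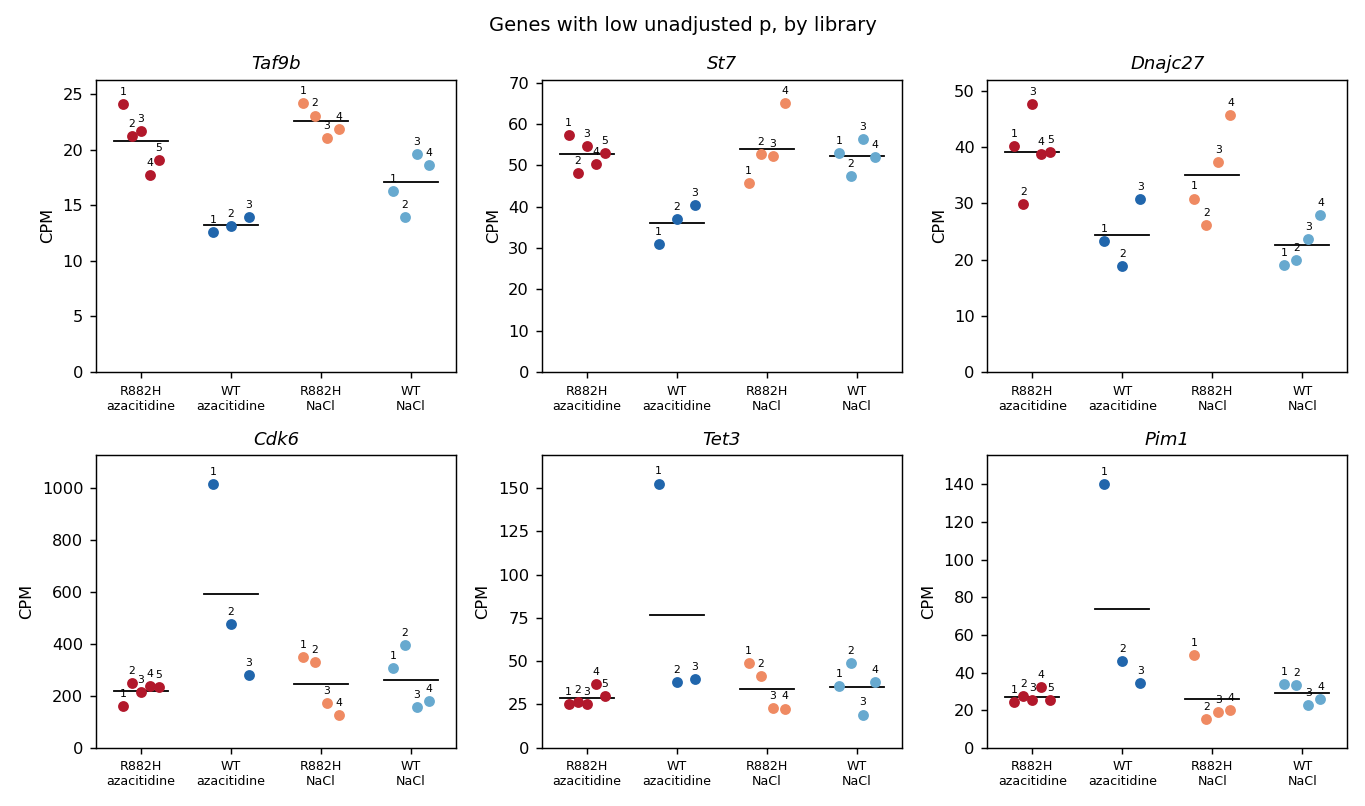
CPM of 6 genes in each of the 16 libraries by genotype and treatment; points are libraries with their replicate number and lines are group means. Taf9b and St7 separate all 5 R882H from all 3 WT azacitidine libraries, while for Cdk6, Tet3 and Pim1 WT replicate 1 is the highest library at 1016, 153 and 140 CPM.

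Mouse Dnmt3a was read, whereas the R882H change sits in the human cDNA. Dnmt3a stood at 95.4, 94.8, 103, 96.8 and 90.8 CPM in R882H and at 146, 80.2 and 90.0 in WT (log2 -0.13, SE 0.19, 95% interval -0.53 to 0.27). WT replicate 1 was the highest library and the other WT libraries lay below the R882H range. How far reads of the human cDNA were assigned to mouse Dnmt3a is not known, so this value does not check the allele. Around it on chromosome 12, 29 neighbours within 1 Mb were tested and none was called. An unadjusted p under 0.05 was found for 5 of the 29, beside 9.34% of all genes. Dnajc27, a co-chaperone with a small GTPase domain at chr12:4082583-4110606, stood at 40.3, 29.9, 47.6, 38.8 and 39.1 CPM in R882H and at 23.4, 18.9 and 30.8 in WT (log2 0.69, SE 0.22). Under NaCl the same gene stood at 26.2 to 45.8 CPM in R882H and at 19.05 to 28.0 in WT (log2 0.63, unadjusted p = 0.0081). Efr3b, a membrane anchor protein on the same side of Dnmt3a, had log2 differences of 1.08 and 0.97 (unadjusted p = 0.0224 and 0.0275). Both genes thus lay on the same side under both treatments, in libraries that the treatments do not share. Dnajc27 was chosen for its low p and Efr3b after its values were seen. Under azacitidine the groups overlapped in both genes, and the labels do not say that libraries came from separate animals. The other neighbours with an unadjusted p under 0.05 under azacitidine were Rab10os, Dtnb and Gm17816. Rab10os and Dtnb had log2 differences of 0.36 and 0.48 under azacitidine and of 0.15 and 0.12 under NaCl. Gm17816 changed sign, from -2.08 under azacitidine to 1.00 under NaCl.

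The machinery that writes and removes DNA methylation showed no common direction: of 24 tested members, 14 were above 0 and 10 below, with a median of 0.03 beside -0.02 over all genes tested. Dnmt3b, the other de novo methyltransferase, stood at 131, 121, 136, 128 and 129 CPM in R882H and at 113, 92.8 and 100 in WT (log2 0.34, SE 0.23), without overlap. Dnmt1, which copies methylation after replication, ranged from 189 to 503 CPM in R882H and from 241 to 274 in WT (log2 0.49, SE 0.32). Tet3, which oxidises methylcytosine, stood at 25.3 to 37.0 CPM in R882H and at 153, 38.1 and 39.4 in WT (log2 -1.41, SE 0.41). Genes that are normally silenced by methylation were near the limit of detection: 14 of the 26 germline genes passed the filter, their median was -0.11, and Taf7l, Tex13a and Rhox5 were at 0 in all 8 libraries. Imprinted genes had 17 of 22 members above 0 and a median of 0.27, which was -0.11 within libraries numbered 3 and up. Grb10, an imprinted brake on insulin signalling, stood at 17.2 to 46.2 CPM in R882H and at 11.3, 7.04 and 20.2 in WT, with log2 differences of 1.05 under azacitidine and 0.93 under NaCl (unadjusted p = 0.037 and 0.048).

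Interferon-stimulated genes lay mostly above WT. Of 66 tested members 52 were above 0 (78.8%, beside 47.9% of all genes), the median was 0.37, 13 had an unadjusted p under 0.05 on the higher side (19.7%, beside 2.65%) and 8 had no overlapping library (12.1%, beside 5.05%). No member was called. Among sensors, Ifih1, which detects long double-stranded RNA, stood at 34.9, 26.5, 24.7, 27.7 and 27.3 CPM in R882H and at 15.5, 14.5 and 22.02 in WT (log2 0.70). Among transcription factors, Irf7 stood at 52.97, 48.3, 43.2, 34.8 and 32.1 CPM against 20.2, 21.2 and 35.7 (log2 0.72), and Irf9 at 139, 131, 129, 119 and 122 against 82.5, 90.8 and 109 (log2 0.44). For Irf7 the third WT library lay inside the R882H range, and for Ifih1 and Irf9 it was the WT library nearest to it. Among effectors, Ifit3, which binds viral RNA, stood at 3.67, 2.45, 1.39, 1.97 and 1.78 CPM against 0.43, 0.38 and 1.80 (log2 1.37). Isg15, a ubiquitin-like modifier, gave no such difference at 7.04 to 13.7 CPM against 8.06, 7.58 and 12.1 (log2 0.01).

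The same list was not higher under NaCl, where 26 of 66 members were above 0 and the median was -0.06. Summed over the list, levels were 4054 to 4812 CPM in R882H and 3236, 3143 and 4149 in WT under azacitidine. WT replicate 3 thus lay within the R882H range. Under NaCl the sums were 2812 to 5000 CPM in R882H and 3850 to 5185 in WT. Among the azacitidine libraries, only WT replicates 1 and 2 lay below every WT NaCl library. Within libraries numbered 3 and up the median was -0.06, with 28 of 66 members above 0, and within those numbered 1 and 2 it was 0.67. All 5 R882H libraries lay above WT replicates 1 and 2, and only 1 WT library, replicate 3, stands behind the value for numbers 3 and up. Whether other features of these libraries have a part in it was not tested.

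Promoters of interferon-stimulated genes with a low unadjusted p are shown because the response is known to run through a short element. RefSeq promoters of GRCm38.p6, 250 bases before to 50 bases after the start, were searched on both strands for GAAA, any 2 bases and GAAA, the core of the interferon-stimulated response element. Of 27025 genes with a promoter, 1079 (4.0%) held it. A promoter was found for 51 of the 66 list members, and with 15 missing a comparison of the list with all genes is void and was not made. The stretches below come from the 3 members with the lowest p whose match lay before the start, on the plus strand, 5′ to 3′, with the match on either strand in capitals.
Ifit3, chr19:34583348-34583441: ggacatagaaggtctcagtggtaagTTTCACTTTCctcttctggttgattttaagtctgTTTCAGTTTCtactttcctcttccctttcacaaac
Gbp7, chr3:142530258-142530317: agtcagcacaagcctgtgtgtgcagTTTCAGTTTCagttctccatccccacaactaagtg
Igtp, chr11:58199497-58199555: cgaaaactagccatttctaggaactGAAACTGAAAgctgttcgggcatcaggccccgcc

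Ifit3 held the match in 2 places, and Gbp7 and Igtp, both GTPases of cell-autonomous defence, in 1 place each. Gbp7 stood at 83.9 to 131 CPM in R882H and at 72.4, 55.4 and 96.0 in WT (log2 0.55). Igtp stood at 77.3 to 119 CPM in R882H and at 38.0, 45.7 and 91.9 in WT (log2 0.76). For both genes WT replicate 3 overlapped R882H while the other WT libraries did not. The matches are a description of these letters and show no binding.

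Neutrophil and monocyte priming genes lay below WT. Of 32 tested members 29 were below 0 (90.6%, beside 52.1% of all genes), the median was -0.69, and 10 had an unadjusted p under 0.05 on the lower side (31.2%, beside 6.69%). No member had all R882H libraries below all WT libraries. Prtn3, proteinase 3 of azurophil granules, stood at 273, 231, 263, 244 and 293 CPM in R882H and at 820, 1122 and 279 in WT (log2 -1.51, SE 0.40). Ctsg, cathepsin G of the same granules, stood at 129, 135, 175, 133 and 186 CPM against 525, 889 and 114 (log2 -1.75). Cebpa, the transcription factor that starts granulocyte and monocyte differentiation, stood at 17.8, 16.1, 26.2, 22.8 and 31.3 CPM against 65.0, 59.7 and 17.7 (log2 -1.06). In each of these genes WT replicates 1 and 2 lay above all 5 R882H libraries, while WT replicate 3 lay within or just below their range. Mpo, myeloperoxidase, varied more within R882H, at 1652, 881.9, 1918, 1566 and 2791 CPM, against 2222, 5814 and 840 in WT (log2 -0.75, SE 0.52).

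Within libraries numbered 3 and up the median of this list was 0.265, with 20 of 32 members above 0, and without WT replicate 2 it was -0.16. Under NaCl the median was -0.01. Summed levels under azacitidine were 4282 to 6325 CPM in R882H and 7227, 14040 and 3683 in WT. Markers of mature neutrophils did not follow the same libraries. Their sum was 773 CPM in R882H replicate 2 and 403 in WT replicate 3, and 22.5 to 103 CPM in the other 6 libraries. Ngp, a neutrophil granule protein, stood at 218 CPM in R882H replicate 2, 96.4 in WT replicate 3 and 0.44 to 9.28 elsewhere.

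Megakaryocyte and erythroid priming genes were divided. Pf4, platelet factor 4, stood at 86.9, 63.3, 78.6, 82.0 and 89.0 CPM in R882H and at 220, 368 and 70.6 in WT (log2 -1.46), again with WT replicate 3 at the R882H level. The megakaryocyte list as a whole had 10 of 21 members above 0 and a median of -0.11. Within libraries numbered 3 and up its median was 0.227, with 17 of 21 members above 0. Gata1, the transcription factor of both lineages, stood at 48.7 to 60.6 CPM in R882H and 49.0, 71.3 and 42.2 in WT (log2 0.00, SE 0.61). The erythroid list had 11 of 31 members above 0 and a median of -0.14 under azacitidine, which was 0.09 within libraries numbered 3 and up. Under NaCl all 31 members of the erythroid list were above 0 with a median of 1.245. Under NaCl 2 libraries stood apart: the summed list was at 6160 and 16290 CPM in R882H replicates 1 and 2, and at 2719 and 2715 in replicates 3 and 4, below all 4 WT libraries at 2977 to 3776. No gene of these lists was called in the test of that difference between treatments.

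Stem cell genes lay above WT in number: 33 of 39 tested members were above 0 (84.6%, beside 47.9%), with a median of 0.40, while 2 had an unadjusted p under 0.05 (5.13%, beside 2.65%). Procr, the stem cell surface receptor EPCR, stood at 68.9, 50.1, 40.6, 49.8 and 36.4 CPM in R882H and at 9.98, 7.31 and 54.2 in WT (log2 1.04, SE 0.60). WT replicate 3 had the second highest level of the 8 libraries, and the other 2 WT libraries were the lowest. Eya2, a transcriptional coactivator, was free of overlap at 75.0 to 113 CPM against 35.4, 48.6 and 61.2 (log2 0.87). Mecom, a regulator of long-term stem cells, stood at 42.8 to 91.3 CPM against 36.6, 23.5 and 49.6 (log2 0.77). The list's median was -0.06 within libraries numbered 3 and up, also below 0 with 2 surrogate variables, and 0.215 under NaCl.

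Hox, Meis and Pbx factors had 14 of 22 members above 0 and a median of 0.31, which turned to -0.15 within libraries numbered 3 and up. Hoxa9, a driver of self-renewal, stood at 124 to 165 CPM in R882H and 86.2, 111 and 142 in WT (log2 0.31). Meis1, its partner, stood at 255 to 371 CPM against 240, 240 and 304 (log2 0.32). Among leukaemia-associated stemness genes Mycn stood at 194 to 245 CPM in R882H and at 75.9, 111 and 167 in WT (log2 0.83), and Lyl1, a stem cell transcription factor, at 46.6 to 61.6 against 72.0, 76.3 and 66.4 (log2 -0.34). Lyl1 had a log2 difference of -0.31 under NaCl too (unadjusted p = 0.033 under azacitidine and 0.047 under NaCl).

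**Figure D3:**
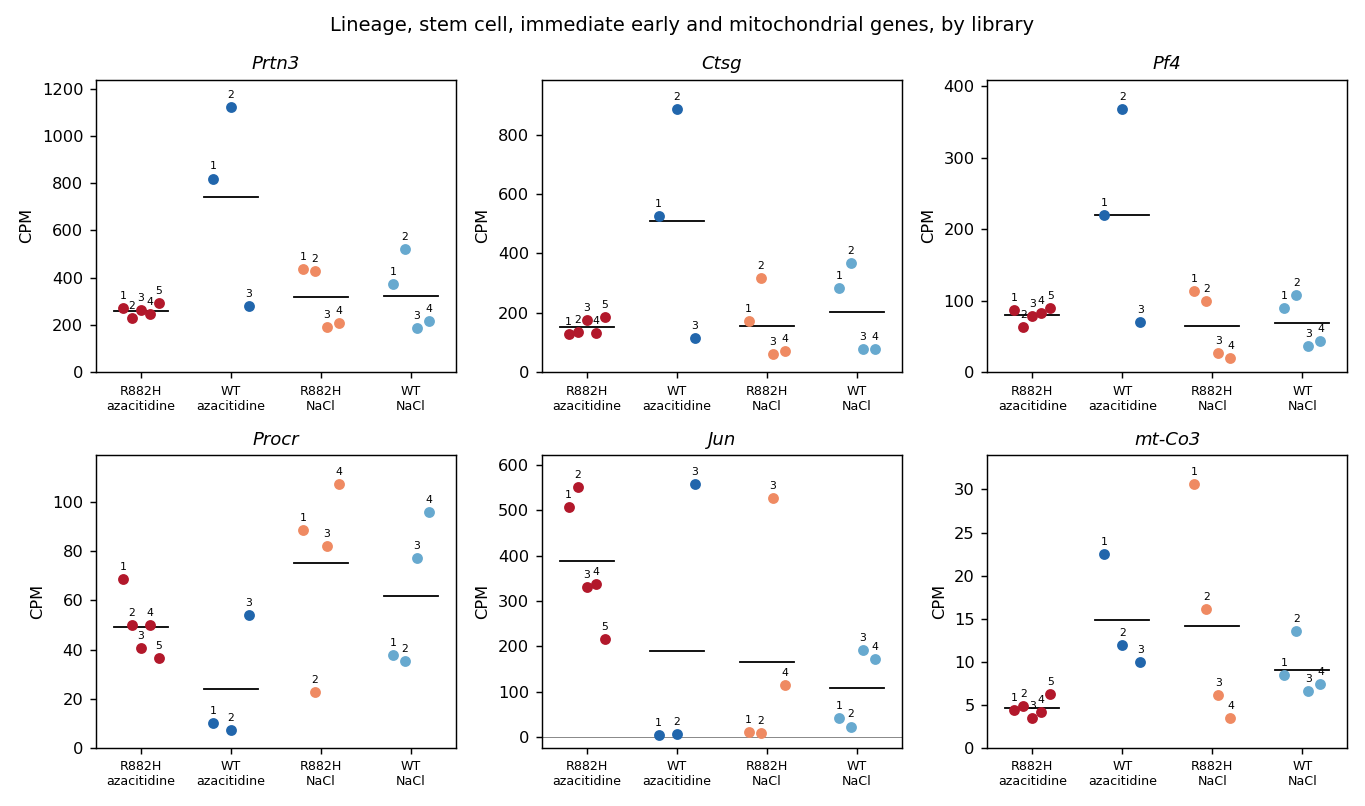
CPM of 6 genes in each of the 16 libraries by genotype and treatment; points are libraries with their replicate number and lines are group means. For Prtn3, Ctsg, Pf4, Procr and Jun WT replicate 3 of the azacitidine group lies with the R882H libraries and WT replicates 1 and 2 lie apart, while for mt-Co3 all 3 WT libraries lie above all 5 R882H libraries.

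Antibody genes were the gene type that lay furthest above WT: 153 of 182 tested immunoglobulin genes were above 0, with a median of 1.75, and under NaCl the median was 0.53. Their share of gene counts was 2.22 to 6.2% in R882H and 0.127, 0.557 and 3.4% in WT. WT replicate 3 was within the R882H range. Igkv5-48, a light chain variable segment, stood at 1058, 30.2, 21.8, 8.56 and 7.66 CPM in R882H and at 0, 0 and 0.026 in WT. Single variable segments follow individual plasma cell clones and share reads with near-identical copies, so their counts are uncertain. The plasma cell list had 11 of 11 members above 0 and a median of 0.76, but its members overlapped in every case and its median was -0.17 within libraries numbered 3 and up. Sdc1, the plasma cell surface protein CD138, stood at 40.7 to 93.0 CPM in R882H and at 21.8, 18.3 and 60.0 in WT. Of the 21 DESeq2 calls 14 were immunoglobulin variable segments.

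Medians of other lineages lay between -0.14 and 0.45. The lymphoid priming list had a median of 0.16, mature B cells 0.45, T and NK cells 0.18, dendritic cells with macrophages 0.33, the mast cell and granulocyte list of basophils and eosinophils -0.14, and stroma with endothelium 0.03. Within libraries numbered 3 and up these medians were, in the same order, 0.13, -0.006, -0.026, -0.081, 0.157 and 0.145. The last 2 lists changed sign in 8 of 19 alternative settings each. Tcf7, an early T cell factor, stood at 5.91 to 15.3 CPM in R882H and at 31.1, 37.7 and 9.19 in WT (log2 -1.32). Il7r, the receptor that marks common lymphoid progenitors, stood at 2.51 to 4.15 CPM in R882H and at 3.44 to 6.23 in WT. Flt3, the receptor of multipotent progenitors, stood at 486 to 752 CPM against 432 to 606 (log2 0.21, SE 0.36).

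Cell division genes lay slightly below WT. Of 38 mitotic genes 31 were below 0 (81.6%, beside 52.1%) with a median of -0.11, and 4 were free of overlap on the lower side (10.53%, beside 5.66%), while 1 had an unadjusted p under 0.05 (2.63%, beside 6.69%). Mki67, the proliferation marker, stood at 83.1, 107, 117, 144 and 112 CPM in R882H and at 251, 158 and 147 in WT (log2 -0.72, SE 0.36). Cdk1, the mitotic kinase, stood at 93.7 to 137 CPM against 161, 227 and 149 (log2 -0.51). Within libraries numbered 3 and up the mitotic median was 0.01. DNA replication genes had 24 of 39 members above 0 and a median of 0.09, which became -0.04 without WT replicate 1. Mcm2, a subunit of the replicative helicase, stood at 442, 427, 465.9, 478 and 532 CPM in R882H and at 219, 383 and 339 in WT (log2 0.58).

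Genes of arrest, damage and death followed. Cdkn1a, the p21 inhibitor of cell cycle kinases, stood at 19.3, 24.8, 20.7, 18.5 and 23.4 CPM in R882H and at 33.1, 44.8 and 25.9 in WT (log2 -0.70, SE 0.30). It was free of overlap and had a similar log2 difference under NaCl, -0.77 (unadjusted p = 0.032 and 0.018). The p53 targets were on both sides: 17 of 29 were above 0 and 12 below, with a median of 0.06, and 1 had an unadjusted p under 0.05 on the higher side and 3 on the lower. Perp, a membrane protein of p53-dependent death, stood at 2.13, 2.33, 2.19, 2.10 and 3.16 CPM in R882H and at 4.82, 6.33 and 2.36 in WT (log2 -0.92, SE 0.30). Sesn2, a stress sensor, stood at 24.2 to 28.9 CPM against 16.6, 16.1 and 17.7 (log2 0.63). DNA damage repair genes had a median of 0.03. Apoptosis regulators had 18 of 22 members below 0 and a median of -0.16. Casp9, the initiator caspase of the mitochondrial pathway, lay above WT at 22.1 to 34.6 CPM against 17.8, 18.8 and 18.9 (log2 0.59, SE 0.19), while Xiap, which inhibits it, lay below at 9.63 to 14.2 against 38.8, 19.2 and 16.3 (log2 -1.07, SE 0.40). Both were free of overlap.

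Immediate early genes were lower in sum in WT replicates 1 and 2, at 1240 and 1526 CPM, than in the R882H libraries at 2449 to 4547 and WT replicate 3 at 4645. Fos, a subunit of the AP-1 factor, stood at 376, 534, 190, 167 and 74.3 CPM in R882H and at 1.61, 2.03 and 653 in WT. Jun, its partner, stood at 508, 551, 331, 338 and 217 CPM against 3.88, 7.14 and 558. WT replicates 1 and 2 were thus the lowest and WT replicate 3 the highest library for both genes. The list had 22 of 25 members above 0 and a median of 0.34, with a median of 1.84 within libraries numbered 1 and 2 and of -0.76 within those numbered 3 and up. Inflammatory NF-kB targets had 23 of 28 members above 0 and a median of 0.25, which was 0.028 within libraries numbered 3 and up. Nfkbie, an inhibitor of the pathway, stood at 45.9 to 56.9 CPM against 31.4, 32.8 and 40.5 (log2 0.51). The integrated stress response had a median of 0.02, and its factor Atf4 stood at 91.5 to 106 CPM against 176, 143 and 141 (log2 -0.61).

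**Figure D4:**
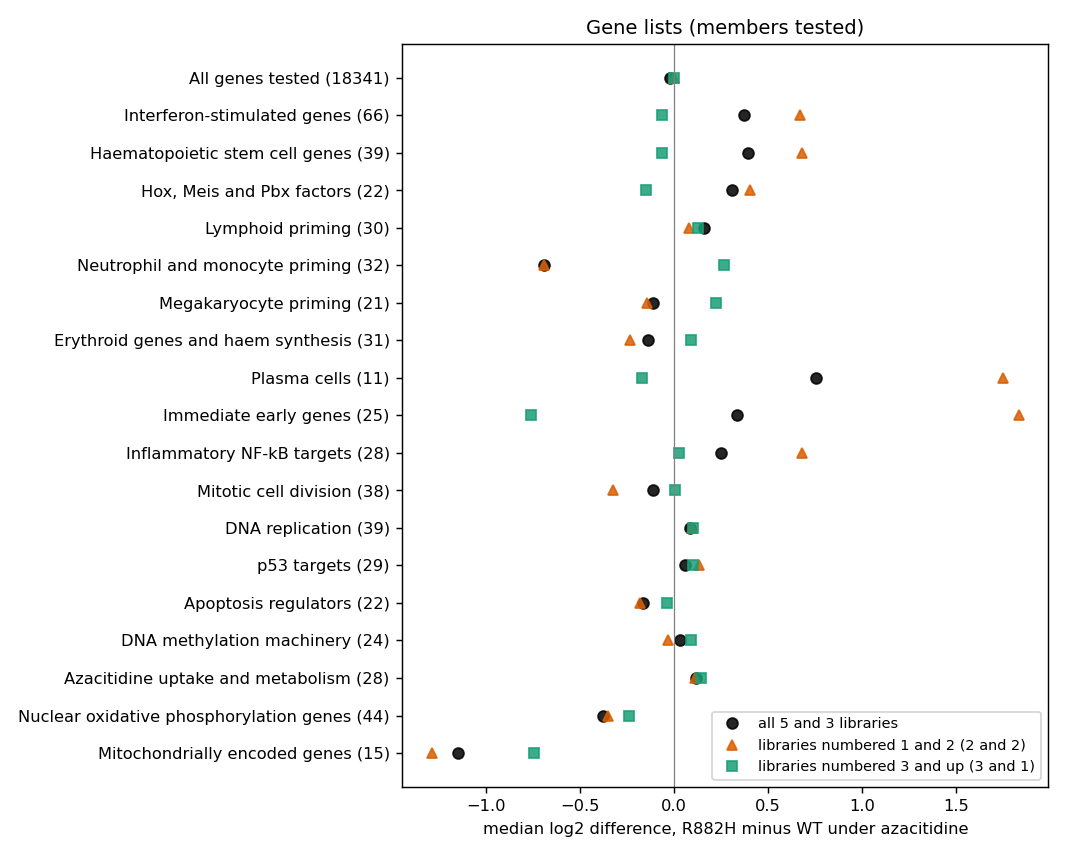
Median log2 difference, R882H minus WT under azacitidine, over the tested members of 18 gene lists and over all genes tested; circles use all 8 libraries, triangles the 4 numbered 1 and 2, and squares the 4 numbered 3 and up. Interferon-stimulated, stem cell, myeloid, plasma cell and immediate early lists have triangles and squares on opposite sides of 0, while mitochondrially encoded and nuclear oxidative phosphorylation genes stay below 0.

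Mitochondrial transcripts lay below WT. Summed over the list, levels were 2740 to 3664 CPM in R882H and 9503, 5572 and 4442 in WT. Here WT replicate 3 lay above all 5 R882H libraries, as the other WT libraries did. All 15 mitochondrially encoded genes tested were below 0, with a median of -1.15, 10 had an unadjusted p under 0.05 (66.7%, beside 6.69%) and 12 had no overlap (80.0%, beside 5.66%). mt-Co3, a core subunit of cytochrome c oxidase, stood at 4.33, 4.87, 3.41, 4.17 and 6.22 CPM in R882H and at 22.5, 11.9 and 9.93 in WT (log2 -1.68, SE 0.51). mt-Cytb, cytochrome b of complex III, stood at 750, 747, 825, 954 and 1028 CPM against 1627, 1541 and 1215 (log2 -0.76). Why mt-Co3 was counted so far below mt-Cytb was not tested. The treatment of reads with several positions is not given, so its level is uncertain. The mitochondrial share of gene counts was 0.277 to 0.374% in R882H and 0.98, 0.518 and 0.459% in WT. The median was -0.85 without WT replicate 1 and -0.74 within libraries numbered 3 and up. Under NaCl all 15 were above 0 with a median of 0.64, where R882H replicates 1 and 2 had shares of 1.78 and 0.679% beside 0.312 and 0.27% in replicates 3 and 4. Ribosomal protein genes moved with this share, at 2.35 to 3.11% of gene counts in R882H and 5.25, 4.27 and 3.3% in WT, and their part in the result was not tested.

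Nuclear genes of oxidative phosphorylation had 38 of 44 members below 0 (86.4%, beside 52.1%), a median of -0.37 and 6 members free of overlap on the lower side (13.6%, beside 5.66%), with no unadjusted p under 0.05. Cox6c, a subunit of cytochrome c oxidase, stood at 166, 283, 196, 222 and 187 CPM in R882H and at 301, 406 and 279 in WT (log2 -0.64). Their median was -0.48 without WT replicate 1, -0.24 within libraries numbered 3 and up, and 0.115 with 2 surrogate variables in the fit. Glycolysis and hypoxia genes had a median of 0.16; Pfkl, a phosphofructokinase, stood at 381 to 431 CPM against 190, 336 and 320 (log2 0.53), without overlap. Cholesterol synthesis genes had a median of 0.14, and Sqle, squalene epoxidase, stood at 58.7 to 75.2 CPM against 34.3, 48.1 and 56.1 (log2 0.54).

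The list for uptake, metabolism and export of azacitidine or other nucleosides had 19 of 28 members above 0 and a median of 0.12. In it, 5 members were free of overlap on the higher side (17.9%, beside 5.05%). Slc29a1, the equilibrative nucleoside transporter, stood at 134, 135, 157, 153 and 151 CPM in R882H and at 92.3, 118 and 130 in WT (log2 0.36). Dck, deoxycytidine kinase, stood at 69.9 to 74.3 CPM against 63.6, 69.8 and 65.4 (log2 0.12), and Samhd1, which degrades deoxynucleotides, at 62.5 to 81.4 against 94.2, 72.2 and 70.5 (log2 -0.11). The efflux pump gene Abcb1a stood at 9.74, 4.12, 3.29, 7.6 and 4.62 CPM in R882H and at 1.08, 0.46 and 2.9 in WT (log2 1.99, SE 0.78). Abcb1a was free of overlap, and under NaCl its log2 difference was 0.97 (unadjusted p = 0.18).

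Signalling and niche genes gave medians of 0.12 for cytokine receptors and their signalling, 0.09 for Wnt, Notch and TGF-beta, and 0.17 for adhesion and homing. Jak1, the kinase of interferon and cytokine receptors, stood at 488, 328, 414, 402 and 463 CPM in R882H and at 276, 253 and 276 in WT (log2 0.64), without overlap. Itgb2, the beta 2 integrin, stood at 53.3 to 68.9 CPM against 35.7, 35.5 and 43.7 (log2 0.64), also without overlap. Cxcr4, the receptor that retains stem cells in marrow, stood at 15.99, 17.1, 16.5, 31.2 and 22.1 CPM against 57.4, 31.8 and 27.2 (log2 -0.91). Notch2 was high in WT replicate 1 alone, at 93.8 CPM against 22.2 and 27.3 in the other WT libraries and 20.3 to 27.1 in R882H.

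Pseudogenes and long non-coding RNAs lay mostly below WT. Of 1629 pseudogenes 1269 were below 0, with a median of -0.43, and 305 had an unadjusted p under 0.05 on the lower side (18.7%, beside 6.69%). Antisense transcripts had a median of -0.27 and long intergenic RNAs one of -0.26, beside 0.04 for 13661 protein-coding genes. Under NaCl the medians of pseudogenes, antisense transcripts and long intergenic RNAs were -0.01, 0.04 and 0.04. Gene models of the class TEC and sense intronic transcripts lay lower still, with medians of -0.605 and -0.499, beside 0.123 and 0.213 under NaCl. Values of single libraries are not given for these types. The part of WT replicate 1, with 10.09% of its counts on repeat families, was not tested. Pseudogenes share reads with their parent genes, and without strand information antisense reads cannot be told from those of the partner gene.

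The 2 genotype differences were tested against each other. No gene was called in edgeR for the azacitidine difference minus the NaCl difference (0%), 1114 genes had an unadjusted p under 0.05 (212 higher, 1.16%, and 902 lower, 4.92%), and DESeq2 called 12. The lowest p belonged to Klf9, a zinc finger transcription factor induced by glucocorticoids, which stood at 14.6, 14.4, 12.5, 19.1 and 10.8 CPM in R882H and 24.1, 24.1 and 15.6 in WT under azacitidine, and at 24.9, 34.7, 20.9 and 20.2 in R882H and 12.6, 12.8, 12.4 and 16.6 in WT under NaCl. The log2 difference was -0.57 under azacitidine and 0.89 under NaCl (edgeR adjusted p = 0.763 for the difference between them). At an unadjusted p under 0.05 under both treatments, 33 genes were higher in both, 24 lower in both and 15 on opposite sides. Of the 18341 genes tested, 1713 reached that p under azacitidine and 1026 under NaCl. The overlap that unrelated sets of these sizes would have was not computed, so the counts show no shared genotype difference. The treatments share no library, and over all genes 51.6% had the same sign under both.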

How the data were processed

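cDNA of sorted LSK cells was amplified with the SMARTer Ultra Low kit and cut to inserts of about 200 bp, from RNA with a RIN of 8 or more, per the labels' protocols. The authors deposited raw counts per gene and per repeat family; HISAT2 2.0.5, featureCounts 1.6.2, edgeR 3.26.6 and GRCm38, also called mm10, are named in the submitters' processing notes. The strand setting and the treatment of reads with several positions are not given in the sources used here. The FPKM files were not used. Repeat family rows, 2.97 to 10.09% of counts, stayed out of library sizes and tests. Symbols and coordinates were found for 30100 of 30141 gene identifiers in GENCODE vM21.

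The 4 groups, 16 libraries, entered 1 edgeR 4.0.16 quasi-likelihood fit (R 4.3.3) with 1 coefficient per group, after filterByExpr; the common dispersion was 0.166. The contrasts were R882H against WT under azacitidine, the same under NaCl, and their difference. The procedure was tested on simulated data first. There the azacitidine comparison called 33% of 100 genes changed 2-fold and 90% of 100 changed 4-fold, with 3 false calls. A gene without a call can therefore still differ. Reads carry no molecular identifiers, and SD and SE cover the spread between libraries. No pair within a group was a copy: the lowest chi-square per gene was 41.99. Under NaCl, same-numbered libraries of the genotypes deviated together (r = 0.101, 0.342, 0.34 and 0.32), which met the rule for pairing, every r over 0.1. Libraries numbered 1 and 2 correlated across numbers as well (0.258 and 0.27), as did those numbered 3 and 4 (0.296 and 0.313), so the numbers may mark 2 classes rather than pairs.

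Named genes were the 12 with the lowest p per direction (mean of at least 1 log2 CPM, gene models and pseudogenes aside), the 3 with the lowest p in each list and in the difference between treatments, and a set of stem cell, lineage and methylation genes; other members of lists and neighbours were chosen after their values were seen. The members, lists and the split by replicate number were chosen with earlier results of these data known. DESeq2 1.42.0, limma 3.58.1, sva 3.50.0, other size factors, no filter, the block and left-out libraries were the alternatives. The called genes are not reported here.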

Additional observations from a re-analysis of the deposited data

Results flagged for a closer look

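In the R882H azacitidine group of 5 libraries, each gene described in detail, each library property and each summed list was searched for a library far from the other 4. Of 131 sets of values 9 held one, and chance alone marks about 1 in 20 sets. R882H replicate 2 stood apart for mature neutrophil RNA, with a summed list level of 772.9 CPM and Ngp at 218.2 CPM, and also for Pax5 at 0.2014 CPM. R882H replicate 1 stood apart for Igkv5-48 at 1058.0 CPM, for Cdk1 at 93.72 CPM, for the summed endothelial and stromal list at 1041.0 CPM and for the summed NF-kB list, also at 1041.0 CPM. R882H replicate 4 had 6.2% of its gene counts on immunoglobulin genes, and R882H replicate 5 had the highest Perp of the group at 3.161 CPM.

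Repeat families, which stayed out of every comparison, took 10.09% of the counts in WT azacitidine replicate 1 and 5.352% in WT azacitidine replicate 3. Both exceed the highest WT NaCl library, at 5.211%, the second by a small margin. R882H NaCl replicate 1 lay between them at 6.813%. WT replicate 1 also stood apart in the gene comparisons, while WT replicate 3 lay among the R882H libraries on the first axis. The part of the repeat share in these positions was not tested.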

How the results depend on the processing

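Genes called under azacitidine numbered 0 with the 8 libraries alone, with limma-voom, with no filter on low counts, with the number class as a covariate and with 2 surrogate variables, 21 with DESeq2, 9 within libraries numbered 1 and 2, and 2 within those numbered 3 and up (Ctse and Igkv12-46), where the single WT library is assumed to vary like the other groups. With the replicate number as a block 0 were called; same-numbered azacitidine libraries did not deviate together (r = -0.029, 0.064 and -0.124), so they share only a number. Leaving out 1 library gave 0 to 1 calls. Under NaCl the count was 28 with DESeq2, 0 with no filter, 2 with the number class, 2 within libraries numbered 3 and up, and 0 to 1 with 1 library left out; the replicate block gave 1 (Clca3a1). The difference between treatments gave 12 calls with DESeq2, 4 within libraries numbered 1 and 2 (Dusp1, Egr1, Fos and Jun) and 2 within those numbered 3 and up. The cause of these differences was not tested. Genes with an unadjusted p under 0.05 under azacitidine numbered 590 without WT replicate 1, 2621 without WT replicate 3 and 3465 with the 8 libraries alone, beside 1713. With 3 WT libraries, 1 of which lies with R882H on the first principal component, the precision of every difference is limited.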
